A study of Mus musculus with 79 samples.

Results

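The genes described here encode the proteins of the cytosolic ribosome, the particle that translates messenger RNA into protein outside the mitochondria. They were chosen by symbol alone: Rpl or Rps followed by a number, with an optional letter or paralogue suffix, together with Rpsa, Rplp0, Rplp1 and Rplp2, leaving out pseudogene copies and the Rps6k kinases. Among 14963 distinct gene symbols in the 2 sets of tables, 85 met that rule. The RORA tables list 80 of them among 14253 genes, the PER2 tables list 84 among 12952 genes, and 79 are in both. By symbol, Rps4l is listed in the RORA tables alone, and Rpl24, Rps10, Rps3a2, Rps3a3 and Rps4y2 in the PER2 tables alone. The sets were matched by symbol only, so a gene named differently in the 2 sets would be counted as 2 members.

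A ribosome is built from a large subunit, which joins amino acids, and a small subunit, which reads the messenger RNA. Most of its proteins are made in matched amounts, and their mRNAs typically begin with a terminal oligopyrimidine (TOP) tract, a C followed by a run of C and T bases, through which the growth kinase complex mTORC1 sets how well they are translated. A few ribosomal proteins have paralogues, such as Rpl3l, which replaces Rpl3 in ribosomes of striated muscle. In skeletal muscle, ribosome content bears on protein synthesis and on growth of the fibre.

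The libraries are poly-A RNA-seq of mouse muscle collected at zeitgeber time (ZT, hours after lights on) 0, 4, 8, 12, 16 and 20. The PER2 set has 24 libraries of PER2 MKO and 19 of CTRL, the RORA set 18 of RORA MKO and 18 of CTRL, with 3 or 4 mice for each genotype and ZT. An MKO mouse lacks the factor in muscle only, and CTRL mice are labelled WT, so that other differences between the genotypes cannot be told apart from the loss of the factor. PER2 represses the activators of the circadian clock, and RORα is a nuclear receptor whose targets include the clock gene Arntl. No source used here gives the driver of the deletion, the age of the mice or which muscle was taken.

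The values come from comparisons that the authors made at each ZT, with no values per library, and library depth is therefore unknown. RORA log2 fold changes are knockout over wild type. The PER2 tables do not state their direction, and PER2 values are given by their deposited sign alone. A gene was called at a ZT where its adjusted p, as deposited, was below 0.05. Means are given as the mean ± SD of the log2 fold changes over the ZT comparisons (n = 6 ZT). The test of the mean (an inverse-variance weighted mean in the RORA set, Stouffer's sum of z in the PER2 set) was adjusted over all genes by Benjamini-Hochberg. It treats the 6 comparisons of a set as separate. Within a set a gene's deposited mean level is the same at all 6 ZT, and whether the comparisons share 1 model fit is not known. Rora itself fell by 1.78 ± 0.15 in RORA MKO and was called at all 6 ZT. Per2 averaged 0.37 ± 0.29 in the PER2 set, was negative at ZT0 (-0.16), positive at the other 5 ZT, and called at only 1 ZT. Its values therefore do not show a loss of Per2 mRNA at every ZT, whichever the direction.

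The promoters of some of the members named below are shown here, with both partners of a paralogue pair where the table holds them. No RefSeq promoter matched Rps20, the member with the lowest mean in the RORA set. Each window holds 25 bases on either side of the annotated start, is taken from RefSeq on GRCm38.p6, and reads 5′ to 3′ on the gene's strand. Capitals mark the longest run of C and T bases that reaches within 10 bases of the start. The run is shown at its full length, which can extend beyond those 10 bases.
Rps27, chr3:90213624-90213673, minus strand: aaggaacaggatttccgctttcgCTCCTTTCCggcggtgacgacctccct
Rps27l, chr9:66946061-66946110, plus strand: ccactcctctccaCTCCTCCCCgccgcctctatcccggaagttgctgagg
Rpl22, chr4:152325701-152325750, plus strand: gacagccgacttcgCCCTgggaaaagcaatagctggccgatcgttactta
Rpl22l1, chr3:28805483-28805532, plus strand: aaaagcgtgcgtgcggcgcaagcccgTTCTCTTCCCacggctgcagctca
Rpl5, chr5:107900503-107900552, plus strand: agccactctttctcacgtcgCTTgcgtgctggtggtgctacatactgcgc
Rps4x, chrX:102189367-102189416, minus strand: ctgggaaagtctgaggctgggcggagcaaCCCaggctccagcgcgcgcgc
Rpl24, chr16:55966250-55966299, plus strand: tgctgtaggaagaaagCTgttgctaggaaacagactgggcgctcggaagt
The run is 9 bases long in Rps27 and in Rps27l, but in Rps27 it spans the start, whereas in Rps27l it opens 12 bases upstream. Rpl22l1 has a run of 10 bases and Rpl22 one of 4. The longest runs are 3 bases in Rpl5, upstream of the start, 3 in Rps4x, downstream of it, and 2 in Rpl24, upstream. Rps27l and Rpl22 have 2 starts in the table, of which the first listed is shown.

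RefSeq promoters matched 61 of the 85 members, with 73 start sites. At 17.8% of these starts a C was followed by at least 4 C or T bases, against 2.51% of all 32851 promoters in the table. The 13 members with such a start were Rpl14, Rpl15, Rpl28, Rpl35, Rpl35a, Rpl38, Rplp2, Rps10, Rps15a, Rps18, Rps21, Rps27 and Rps6. Counting only bases within 10 bases of the start, a run of at least 7 C or T bases was present at 37.0% of the members' starts and 12.2% of all. Over the whole 300 bases and on both strands, CGGAAG, the core to which GABP and other ETS factors bind, was found in 60.3% of the members' promoters and 16.9% of all. AAGATGGC, a core of YY1 sites, was found in 11.0% and 2.75%. GGGCGG, the GC box, was found in 60.3% and 35.7%. AGGTCA, the half-site that ROR receptors share with many nuclear receptors, was found in 12.3% of the members' promoters and 16.3% of all, and the 6 members that held it were Rpl22, Rpl24, Rpl35a, Rpl3l, Rps3 and Rps4x. CACGTG, the E-box core to which clock activators bind, was found in 11.0% and 7.15%. These letters are descriptions of the windows and are not shown to be binding sites. Whether the annotated starts are the starts used in muscle was not tested, and the counts of TOP-like starts depend on their exact position.

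In RORA MKO muscle, ribosomal protein mRNAs were lower as a broad and shallow shift. Over the 6 ZT, 45 of the 80 members fell and 2 rose, while across all genes 19.3% fell and 18.9% rose. The median of the members' means was -0.04 on the log2 scale, 2.71% below controls, and the means ran from -0.35 for Rps20 to 0.14 for Rps27l. The mean was below 0 in 67 members. The median over all genes was 0.00. In bulk muscle, fewer cells of a type and less RNA per cell cannot be told apart. The sizes are small: the mean lay within 0.1 of 0 on the log2 scale in 66 of the 80 members, among them 32 of the 45 that fell. The members' median deposited error was 0.04, against 0.08 for all genes, at a median mean normalized count of 780 against 111. With the spread between ZT taken as the error in limma, 25 members fell and 1 rose, against 14.7% and 15.1% of all genes.

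At each ZT more members were called lower than higher, and how many passed differed between ZT. In the authors' deposited tables, 38 members were called lower and 0 higher at ZT0, where 13.4% of all genes were lower and 14.8% higher. At ZT0, 50 of the 80 members had an unadjusted p under 0.05 in the authors' deposited table. At ZT4 the authors' deposited table called 18 lower and 4 higher (background 14.2% and 14.8%). At ZT8 the authors' deposited table called 31 lower and 1 higher (14.1% and 13.7%). At ZT12 the counts in the authors' deposited table were 15 lower and 1 higher (11.1% and 11.0%). At ZT16 they were 18 lower and 3 higher in the authors' deposited table (10.3% and 10.4%), and at ZT20 19 lower and 5 higher (15.6% and 16.6%). The median over members was most negative at ZT0 (-0.09) and ZT8 (-0.06), stood at -0.04 at ZT12 and at ZT16, and was nearest 0 at ZT20 (-0.03) and ZT4 (-0.02). With the trend of fold change with transcript length and GC content removed, the median was -0.06 at ZT0 and -0.08 at ZT8, so that their order turned. At ZT0, 70 of 80 members were below 0, and at ZT4 45 of 80. The share of members called lower ranged from 18.8% at ZT12 to 47.5% at ZT0. It was 22.5% at ZT4 and 23.8% at ZT20. Of genes at a mean normalized count of 50 or more, 17.4%, 18.6%, 19.2%, 14.7%, 13.2% and 20.9% were called lower from ZT0 to ZT20.

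**Figure D1:**
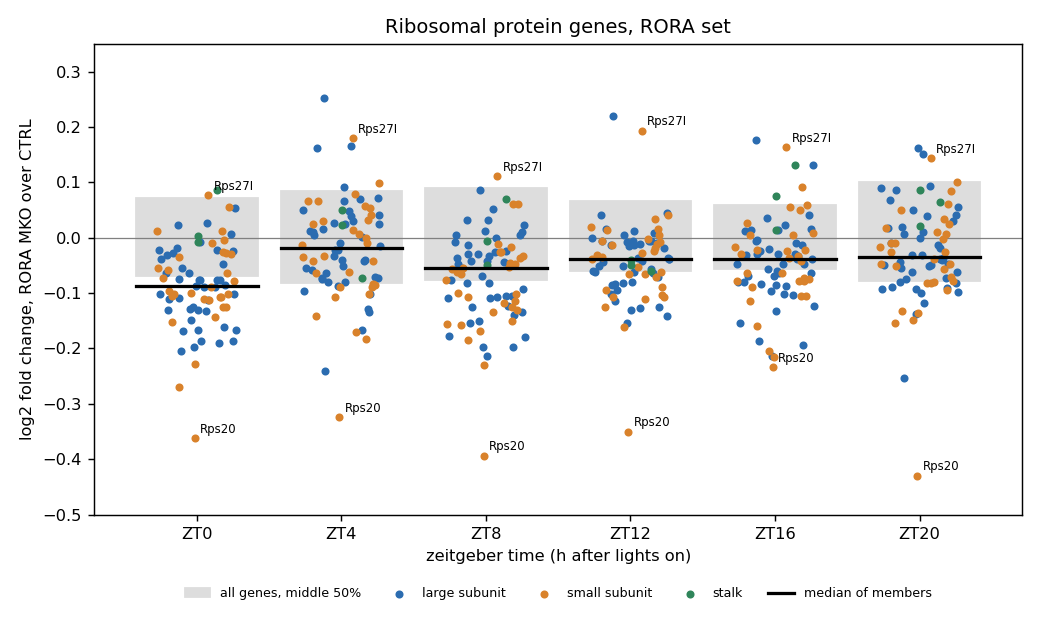
Each point is 1 of 80 ribosomal protein genes at 1 ZT, with its deposited log2 fold change (RORA MKO over CTRL) on the y axis, the black line the members' median and the grey box the middle 50% of all genes. The median lies below 0 at each ZT, Rps20 is the lowest member at every ZT, and Rps27l is above 0 throughout.

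Members differed in how often they were called. In the authors' deposited tables, 4 members were called at all 6 ZT (Rps20, Rpl5, Rpl9 and Rps4x), 6 at 5 of them, 24 at 1, and 19 at none. The 4 called at all ZT are 5.00% of members, against 8.65% of all genes, and the 19 called at none are 23.8%, against 41.9%. In all, 29 members (36.2%) were below 0 at every ZT, against 17.1% of all genes, and 1 was above 0 at every ZT. Pearson's r between the members' log2 fold changes at ZT0 and ZT16 was 0.78, and between ZT4 and ZT16 0.30 (each over 80 members, which share libraries within a ZT).

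Among proteins of the large subunit, 26 of 45 members fell and 1 rose. Rpl22l1, a paralogue of Rpl22, had the lowest mean, -0.19 ± 0.05, or 12.5% below controls (adjusted p 6.12e-13). Rpl5 carries 5S ribosomal RNA into the subunit and binds MDM2 when it is free. By the authors' deposited tables, Rpl5 stood at -0.20, -0.09, -0.20, -0.15, -0.21 and -0.14 from ZT0 to ZT20, below 0 at each. Its mean was -0.16 ± 0.05, 10.8% below controls (adjusted p 6.61e-34). Rpl11, which binds MDM2 together with Rpl5, averaged only -0.03 ± 0.05 (adjusted p 0.0338), and the authors' deposited tables called it at ZT0 alone.

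Rpl9, a protein near the base of the stalk, was called at every ZT and averaged -0.14 ± 0.05. Its values in the authors' deposited tables were -0.16, -0.13, -0.20, -0.07, -0.19 and -0.09 from ZT0 to ZT20. Rpl12, which anchors the stalk to the subunit, averaged -0.11 ± 0.05 and was called at 4 ZT. Rpl10, whose joining is a last step of large subunit maturation, averaged -0.11 ± 0.08. The authors' deposited tables gave Rpl10 values between -0.21 at ZT8 and 0.00 at ZT20. The called members of this subunit with the least negative means were Rpl32, at -0.03 ± 0.06 (adjusted p 0.0419), Rpl11 and Rpl22. For Rpl32 and Rpl11 the test was not passed without ZT0, ZT8 or ZT16 (Rpl32: adjusted p 0.371, 0.0999 and 0.361). The member of the large subunit that rose was Rpl37a, with a mean of 0.05 ± 0.07 (adjusted p 0.0107). Rpl37a was called in the authors' deposited tables at ZT4 (0.17) and ZT20 (0.09), and its mean did not pass without either of them (adjusted p 0.231 and 0.101).

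Among proteins of the small subunit, 19 of 32 members fell and 1 rose. Rps20, which sits in the head of the small subunit, had the lowest mean of all members. Its values in the authors' deposited tables were -0.36, -0.32, -0.39, -0.35, -0.23 and -0.43 from ZT0 to ZT20. Rps20 was called at each ZT and was the lowest member at each. Its mean was -0.35 ± 0.07, or 21.5% below controls (adjusted p 3.66e-83), and the test of a change with ZT was not passed (adjusted p 0.228).

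Rps3a1, a protein of the small subunit that contacts initiation factors and has close copies in the genome, averaged -0.16 ± 0.07. In the authors' deposited tables Rps3a1 was lowest at ZT8 (-0.23), ZT0 (-0.23) and ZT16 (-0.22), and nearest 0 at ZT12 (-0.06). Rps4x is encoded on the X chromosome. By the authors' deposited tables, it stood at -0.10, -0.11, -0.17, -0.16, -0.20 and -0.15 from ZT0 to ZT20, all called. Its mean was -0.15 ± 0.04 (adjusted p 7.46e-40). Rps7, Rps27a and Rps15a were the called members of this subunit with the least negative means, each at -0.04, with adjusted p from 0.045 to 0.0487. Of these, Rps27a is made as a fusion with ubiquitin. For these 3 the test was not passed without ZT0 (adjusted p 0.252, 0.357 and 0.421 in that order) or in limma (0.340, 0.353 and 0.296).

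**Figure D2:**
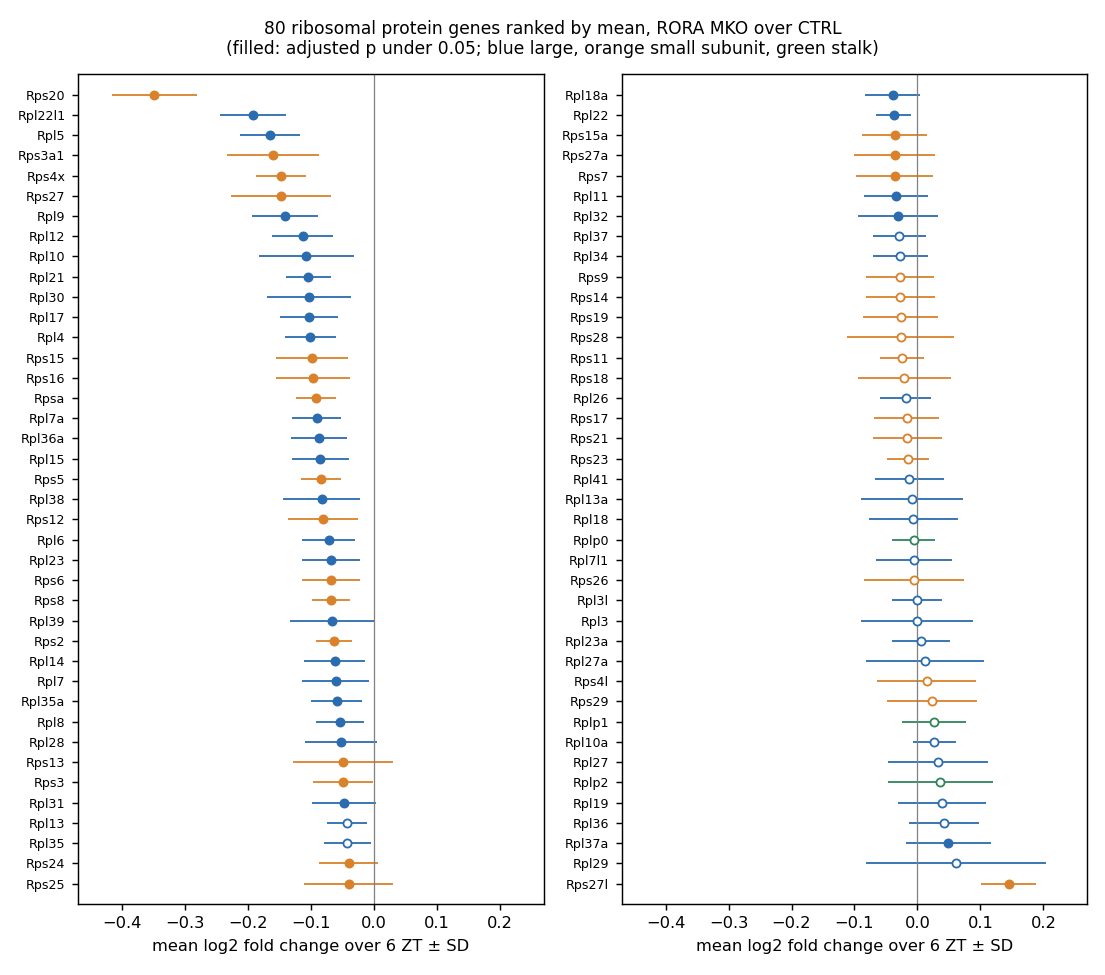
The 80 ribosomal protein genes of the RORA set are ranked by mean log2 fold change, with 1 point per gene, bars for the SD over 6 ZT and filled points for an adjusted p under 0.05. Rps20 stands apart at -0.35, most filled points lie between -0.20 and -0.03, and the stalk genes in green are open and near 0.

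The stalk, made of Rplp0, Rplp1 and Rplp2, recruits elongation factors to the large subunit. None of its 3 genes passed the test by the weighted mean. Rplp0 averaged -0.01 ± 0.03 (adjusted p 0.843), Rplp1 0.03 ± 0.05 (0.466) and Rplp2 0.04 ± 0.08 (0.317). The only call among them in the authors' deposited tables was Rplp2 at ZT16, at 0.13 (adjusted p 0.0476).

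Within 1 paralogue pair the partners moved in opposite directions. Rps27l, a paralogue of Rps27 that is a target of p53, rose in RORA MKO, by 0.14 ± 0.04 (10.6% above controls, adjusted p 5.21e-12). Rps27l stood at 0.08, 0.18, 0.11, 0.19, 0.16 and 0.14 from ZT0 to ZT20, called at 5 ZT and not at ZT0 in the authors' deposited tables. Rps27 fell, with a mean of -0.15 ± 0.08. Rps27 stood at -0.27, -0.03, -0.19, -0.11, -0.16 and -0.13 in the authors' deposited tables. The difference, Rps27l minus Rps27, was 0.29 ± 0.05 and was above 0 at 6 of 6 ZT. It was not tested on its own.

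Rpl22l1 was lower than its partner at each ZT. Rpl22l1 stood at -0.20, -0.24, -0.15, -0.11, -0.19 and -0.25 from ZT0 to ZT20 in the authors' deposited tables. Rpl22 averaged -0.04 ± 0.03 (adjusted p 0.00709, and 0.0728 without ZT0). Rpl22l1 minus Rpl22 was -0.15 ± 0.05 and was not tested on its own. Rpl3 and its striated muscle paralogue Rpl3l both averaged 0.00, with SDs of 0.09 and 0.04, and neither passed the test (adjusted p 0.979 and 0.981). By the authors' deposited tables, Rpl3 was called higher at ZT20 (0.16, adjusted p 0.00476) and Rpl3l lower at ZT4 (-0.07, adjusted p 0.0275). Rpl7 fell, with a mean of -0.06 ± 0.05, and Rpl7l1 stood at -0.01 ± 0.06 (adjusted p 0.855). Rpl39, at the exit tunnel of the large subunit, averaged -0.07 ± 0.07 (adjusted p 0.0118, and 0.102 without ZT0). Rps4l, listed at a mean normalized count of 11.2, averaged 0.01 ± 0.08 (adjusted p 0.872) beside the fall of Rps4x. In limma, Rpl22, Rpl7, Rpl39, Rpl11, Rpl32 and Rpl37a did not pass (adjusted p 0.181, 0.101, 0.113, 0.323, 0.422 and 0.225). Rpl39l and Rpl10l are not among the listed members.

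**Figure D3:**
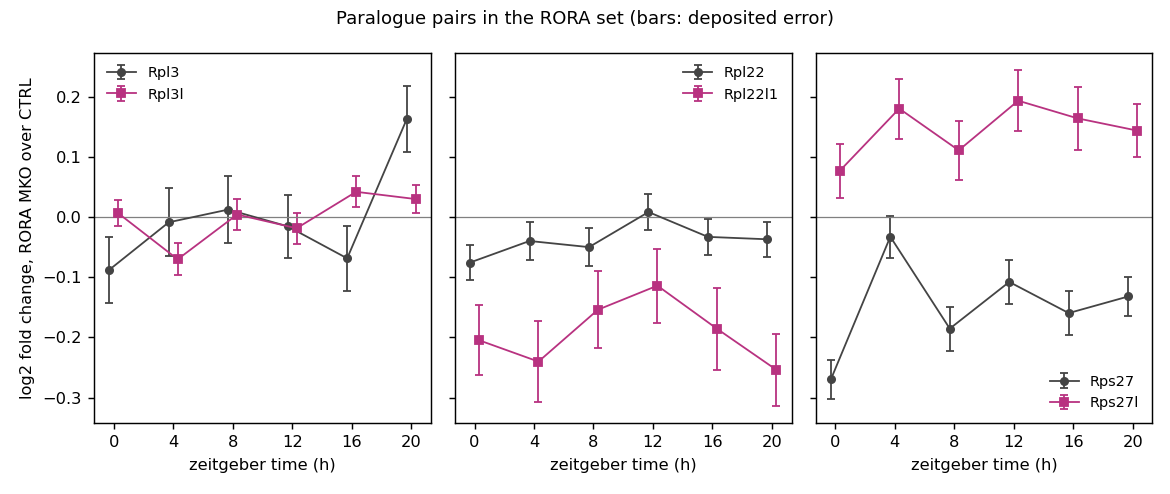
Deposited log2 fold changes (RORA MKO over CTRL, y axis) of 3 paralogue pairs are plotted against ZT, with bars for the deposited error. Rps27l lies above 0 and Rps27 below it at each ZT, Rpl22l1 lies below Rpl22, and Rpl3 and Rpl3l cross around 0.

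The size of the effect changed with ZT in 7 of 80 members by Cochran's Q, against 11.0% of all genes, so the members' share of 8.75% was near the background. The smallest adjusted p belonged to Rpl10 (0.001), Rps27 (0.00119), Rps3a1 (0.00718) and Rps26 (0.0134). Rps27 was lowest at ZT0 and Rps3a1 at ZT8 and ZT0, as given above. Rps26, whose binding helps select the mRNAs that are translated, changed sign. Rps26 stood at -0.10 at ZT4 and -0.09 at ZT20, both called lower, and at 0.09 at ZT16, called higher in the authors' deposited tables. Its mean was 0.00 ± 0.08 (adjusted p 0.835). Time of day and the mice of a ZT cannot be told apart.

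Calls in other protein complexes serve as a comparison, beside 18.9% of all genes that rose and 19.3% that fell over the 6 ZT. Of 77 mitochondrial ribosomal proteins, which translate the mRNAs of mitochondrial DNA, 51 rose and 1 fell, with a median mean of 0.08. Of 37 proteasome subunits 11 rose and 5 fell, with a median of 0.01. The differences between these lists were not tested. The cytosolic proteins outside the symbol rule were 3 (Rack1, Fau and Rpl36al), of which Rack1, a scaffold on the small subunit, fell by 0.07 ± 0.05.

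Among genes that work with the ribosome, each list held calls on both sides. The split was uneven in some lists, such as initiation factors and ribosome biogenesis, where more genes fell than rose. Over all genes 18.9% rose and 19.3% fell. Of 28 initiation factors 12 fell and 1 rose, with a median of -0.03. The lowest adjusted p belonged to Eif3a (-0.26 ± 0.07), Eif3e (-0.20 ± 0.06), Eif1 (-0.16 ± 0.05) and Eif5 (-0.19 ± 0.10), of which Eif3a and Eif3e are subunits of the factor that binds the small subunit. Of 7 elongation factor genes 3 rose and 2 fell. Eef1a2, the form of the tRNA carrier used in muscle, fell by 0.28 ± 0.08, and Eef2k, the kinase that inhibits eEF2, rose by 0.15 ± 0.07. Eef1b2 and Eef1g, exchange factor subunits, rose by 0.10 ± 0.04 and 0.07 ± 0.05.

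Of 7 other genes whose mRNAs begin with a TOP tract, 3 fell and 2 rose. Tpt1 averaged -0.15 ± 0.05, the noncoding snoRNA host Gas5 -0.28 ± 0.11 and Npm1 -0.17 ± 0.03, while Pabpc1, the poly-A binding protein, rose by 0.09 ± 0.04. Of 39 genes of ribosome biogenesis 12 fell and 5 rose. Ncl, the nucleolar protein nucleolin, averaged -0.18 ± 0.02, Ddx21 -0.13 ± 0.03, Nop58 -0.18 ± 0.06 and Rrp12 -0.12 ± 0.05. Of 19 genes in the control of ribosomal protein translation by mTORC1, 6 rose and 5 fell. Sesn1 and Deptor, which restrain mTORC1, rose by 0.48 ± 0.15 and 0.20 ± 0.17, Eif4ebp2 rose by 0.11 ± 0.05, and Tsc1, which also restrains it, fell by 0.22 ± 0.08. Of 11 genes of ribosome quality control and sensing of free subunits, 2 fell and 1 rose. Cdkn1a, a p53 target, rose by 0.21 ± 0.19 (adjusted p 0.0294), Mdm4 and Hbs1l averaged -0.06 ± 0.06 and -0.05 ± 0.04, and Trp53 did not pass (0.07 ± 0.12, adjusted p 0.0828).

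Some markers of other cell types were called in the RORA set, where 18.9% of all genes rose and 19.3% fell over the 6 ZT. All 8 endothelial markers rose, with medians from 0.05 at ZT16 to 0.27 at ZT8. Of 7 macrophage and leukocyte markers 2 rose, of 7 fibroblast markers 2 fell, and of 6 smooth muscle and pericyte markers 2 rose and 1 fell. None of the 5 adipocyte or 6 Schwann cell markers passed the weighted mean test, but their medians moved from -0.73 at ZT0 to 0.45 at ZT20 and from -0.30 at ZT4 to 0.86 at ZT20. Of 4 red blood cell markers 1 rose over the 6 ZT, and all 4 were called at ZT8 (median 0.39) and at ZT20 (median 0.27), and 2 at ZT4 (median 0.27). Of 4 satellite cell markers none passed. All 10 markers of the skeletal muscle fibre, the labelled tissue, were listed, and 3 rose and 3 fell, with a median of 0.00. The part of these cells in the lower ribosomal protein mRNAs was not tested. Across genes, GC content and transcript length together took up 0.871% to 9.16% of the variance of RORA log2 fold changes at a ZT, and after that trend was removed 64 of the 80 members were below 0 at ZT0, and 71 at ZT8.

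In the PER2 set nearly all ribosomal protein genes had negative values at 2 ZT. The median deposited log2 fold change of the 84 members was -0.42 at ZT4 and -0.28 at ZT12, with 82 members below 0 at each. At the other times it was 0.08 at ZT0, 0.00 at ZT8, 0.03 at ZT16 and -0.02 at ZT20. In the authors' deposited table for ZT4, 26 of the 84 members were called negative and 0 positive, where 6.76% of all genes were called negative and 5.49% positive. At that ZT 70 members had an unadjusted p under 0.05 in the authors' deposited table, and 0 had an adjusted p under 0.01.

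At the other 5 ZT the authors' deposited tables called 0 members in either direction. The background at ZT12 was 1.34% negative and 1.99% positive, and 15 members had an unadjusted p under 0.05 there in the authors' deposited table. At ZT0 the background was 1.37% negative and 1.33% positive, at ZT8 0.703% and 1.07%, at ZT16 0.332% and 0.479%, and at ZT20 0.618% and 0.903%. At those 4 ZT 0 members had an unadjusted p under 0.05 in the authors' deposited tables.

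**Figure D4:**
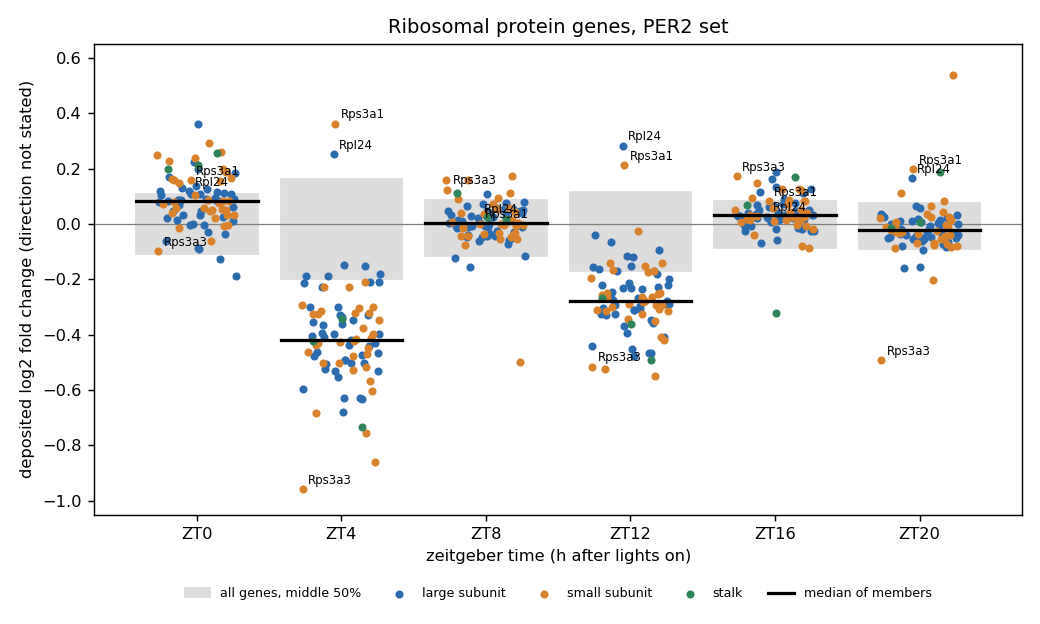
Each point is 1 of 84 ribosomal protein genes at 1 ZT, with its deposited log2 fold change in the PER2 set (direction not stated) on the y axis, the black line the members' median and the grey box the middle 50% of all genes. Nearly all members lie below 0 at ZT4 and ZT12, and Rpl24 and Rps3a1 lie above it.

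The negative values at ZT4 took in both subunits. Of 46 large subunit members 14 were called, with a median of -0.41, and of 35 small subunit members 12 were called, with a median of -0.42. The smallest adjusted p in the authors' deposited table was that of Rpl10a, at -0.53 (0.0108), followed by Rps18, at -0.60 (0.0224), and Rpl37a, at -0.50 (0.0232). These 3 genes were named after their values were seen. The 26 called members lay between -0.63 and -0.30. The stalk genes in the authors' deposited tables stood at -0.34 (Rplp0), -0.73 (Rplp1) and -0.42 (Rplp2) at ZT4, and none was called. The members' values at ZT4 and ZT12 ran together, with a Pearson's r of 0.92 over 84 members, which share libraries within a ZT. Between ZT0 and ZT4 r was -0.24.

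Transcript length moved with these values across all genes. At ZT4 Spearman's rho between transcript length and deposited log2 fold change was 0.52 over 11739 genes, at ZT12 0.44, and at ZT0 -0.24. Length and GC content together accounted for 32.5% of the spread at ZT4, for 30.3% at ZT12, and for 1.49% to 4.92% at the other 4 ZT. Ribosomal protein transcripts are short, with a median of 775 bases against 2922 bases over all genes. Once the trend with length and GC content was removed, the members' median was -0.16 at ZT4 and -0.09 at ZT12, with 74 and 73 of 83 members below 0. With the trend removed, a setting chosen after the data were seen, 1 member passed an adjusted p under 0.05 at ZT4 and 1 at ZT12, and at both it was Rpl24, which was positive. None of the 26 calls remained.

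**Figure D5:**
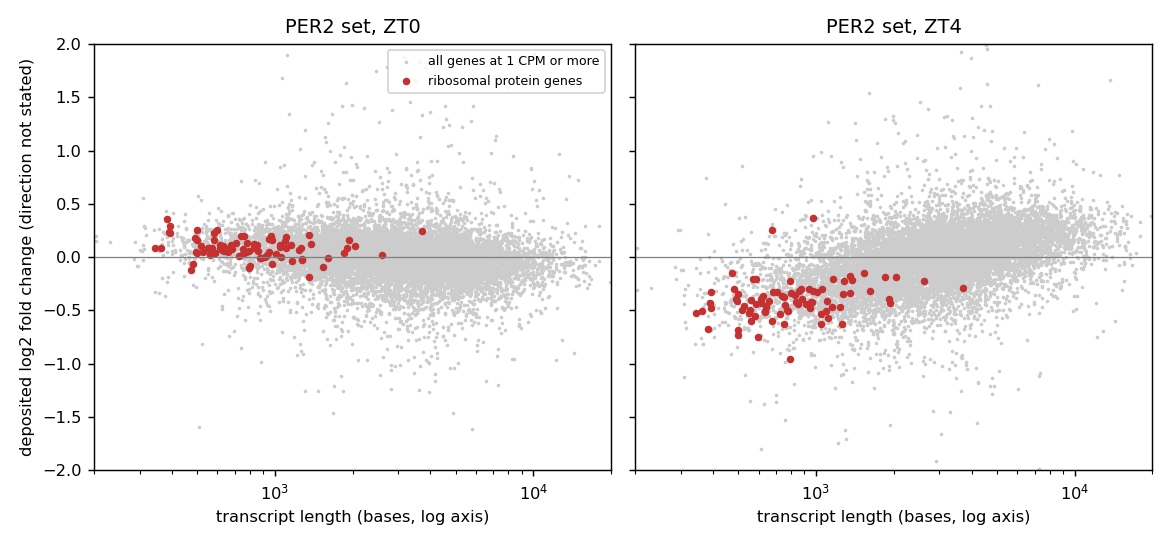
Deposited log2 fold change in the PER2 set (direction not stated, y axis) is plotted against transcript length (log x axis) at ZT0 and ZT4, with ribosomal protein genes in red and all genes at 1 CPM or more in grey. At ZT4 short transcripts lie lower across all genes, and the members lie low among them. With the trend with length and GC content removed, 74 of 83 members were still below 0 at ZT4. At ZT0 the slope is shallower and runs the other way (rho -0.24 against 0.52).

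Other lists had calls at the same ZT, beside 6.76% of all genes called negative at ZT4 and 1.34% at ZT12. Of 76 mitochondrial ribosomal proteins 20 were called negative at ZT4, with a median of -0.32, and of 36 proteasome subunits 7, with a median of -0.19. All 5 listed red blood cell markers were called at ZT4, with a median of -1.35, and 4 at ZT12, with a median of -1.01. Hba-a1, an alpha-globin gene, stood at -1.30 at ZT4 and -0.98 at ZT12 in the authors' deposited tables. Of 10 skeletal muscle fibre markers 1 was called at ZT4, with a median of -0.27. By the mean over ZT, 10.6% of all genes were called negative. So were 5 of 5 red blood cell, 3 of 8 endothelial, 1 of 4 satellite cell and 1 of 10 muscle fibre markers. By Stouffer's test none of the 7 fibroblast, 6 leukocyte, 5 adipocyte, 6 Schwann cell or 6 smooth muscle markers passed. The part of blood in the members' negative values was not tested.

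Few members departed from the negative values at ZT4 and ZT12. Rpl24, which joins the large subunit late and bridges it to the small subunit, stood at 0.12, 0.25, 0.02, 0.28, 0.03 and 0.17 from ZT0 to ZT20 in the authors' deposited tables. It was positive at each ZT, and called at none. Rps3a1 stood at 0.36 at ZT4 and 0.21 at ZT12 in the authors' deposited tables. Rps3a2 and Rps3a3, close copies of Rps3a1, stood at -0.23 and -0.96 at ZT4 in the authors' deposited tables. How reads were shared among the 3 copies is not given in the sources used here, so their values are uncertain. Rps4y2 had a mean of -0.19 ± 0.50, the widest SD named here.

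Over the 6 PER2 comparisons 3 members passed Stouffer's test, against 10.6% of all genes called negative and 10.9% called positive. Rpl10 averaged -0.15 ± 0.12 (adjusted p 0.033) and Rpl3 -0.12 ± 0.08 (adjusted p 0.0254), both negative at 6 of 6 ZT. Rpl24 averaged 0.14 ± 0.11 (adjusted p 0.0201). None of the 3 passed in limma or without ZT4 and ZT12, where the adjusted p was 0.533, 0.306 and 0.428 in the same order. The effect changed with ZT in 0 of 84 members by Cochran's Q, with a smallest adjusted p of 0.558 (Rps29), while 10 had an unadjusted p under 0.05. Across all genes 0.0463% passed. The median derived error of a member was 0.16 in the PER2 set, against 0.04 in the RORA set.

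The named members of the RORA set can be read beside the same genes in the PER2 tables, whose direction is unknown. Rps20 stood at -0.29 at ZT4, -0.20 at ZT12 and 0.25 at ZT0 in the authors' deposited PER2 tables. Rpl5 stood at -0.19 at ZT4 and -0.04 at ZT12 in the authors' deposited PER2 tables, among the values nearest 0 at ZT12. Rps27l minus Rps27 was -0.03 ± 0.11 over the 6 PER2 comparisons, and Rpl22l1 minus Rpl22 was -0.07 ± 0.20. The mean level of Rps27 in the PER2 set was only 6.80 CPM, against a median of 93.1 over the members. Whether the knockouts differ in these genes was not tested.

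Calls in the genes around the ribosome in the PER2 set stand beside 10.9% of all genes called positive and 10.6% negative. Of 28 initiation factors 3 were called positive and 3 negative, among them Eif4e, the cap-binding protein, at 0.15 ± 0.07, Eif4g2 at 0.13 ± 0.08, Eif3l at -0.11 ± 0.09 and Eif4b at -0.09 ± 0.08. Of 7 elongation factor genes 1 was positive (Eef2k, 0.14 ± 0.13) and 2 negative (Eef1a1, -0.14 ± 0.05, and Eef2, -0.10 ± 0.09). Of 18 genes in the control by mTORC1 4 were positive: Larp4 (0.17 ± 0.15), Sesn2 (0.20 ± 0.16), Rps6kb1, the kinase of ribosomal protein S6 (0.12 ± 0.07), and Mlst8 (0.12 ± 0.06). Of 38 biogenesis genes 2 were positive (Ltv1 and Ddx21) and 1 negative (Nop10), of 10 quality control and sensing genes 2 were positive (Cdkn1a and Mdm4), and of 7 other TOP genes none passed Stouffer's test. Fau and Rpl36al, which lie outside the symbol rule, did not pass either (means -0.09 and -0.05).

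Levels were compared between members only per kilobase of transcript. In the RORA set the deposited mean normalized count per kb had a median of 979 over the members. Rplp1 was highest (7827), then Rpl4 (3772), Rpl3l (3336) and Rps27 (2798), and Rps4l (11.9), Rpl13a (32.4), Rpl7l1 (120) and Rpl3 (204) were lowest. The level of Rpl3l was 16.4 times that of Rpl3 in the RORA set and 8.13 times in the PER2 set. In the PER2 set the mean CPM per kb had a median of 120, was highest in Rpl4 (315), Rps14 (273), Rps15 (271) and Rpl26 (270), and lowest in Rpl7l1 (9.88), Rps27 (19.7), Rpl24 (21.2) and Rpl3 (31.0). Rpl22l1 stood at 0.261 times the level of Rpl22 in the RORA set and at 0.365 times in the PER2 set. Rps27l stood at 0.321 times the level of Rps27 in the RORA set but at 3.91 times in the PER2 set, so which partner was higher differed between the sets. That change of order lay in Rps27. Its share of the summed level was 13.4 times as large in the RORA set as in the PER2 set, and that of Rps27l 1.10 times. Whether the muscle or the separate processing of the sets underlies it was not tested.

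The order of levels differed in part between the sets, whose tables were made separately. Over the 79 members listed in both, Spearman's rho of the levels was 0.66, and 2 members differed by more than 4 times. Rps27 had 13.4 times the share of the summed level in the RORA set that it had in the PER2 set, and Rpl13a 0.021 times. Pseudogene copies of ribosomal protein genes, which can take part of their reads, had 17 rows in the RORA tables and 22 in the PER2 tables. All members together took 0.772% of the summed level in the RORA set and 0.912% in the PER2 set.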

How the data were processed

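The members, and the 7 pathway and 9 marker lists, were chosen with earlier results of these data known. Each of the 12 tables is a comparison by the authors, for 1 knockout at 1 ZT. Per the file headers, every row of a RORA table gives a signal (the mean normalized count), a log2 fold change, its error, and a p-value before and after adjustment. The direction, knockout over wild type, and a filter (10 reads, 3 samples) are stated per the labels. Per the file headers, a PER2 row gives log2 values (fold change and mean CPM), a score (the likelihood ratio) and a p-value before and after adjustment. Named in the submitters' processing notes, without roles, are STAR, Trimmomatic, MultiQC, DESeq2, R 4.1, bcl2fastq 2.20.0.422 and the builds mm9 and GRCm39. No source used here names the read counter or the annotation. RORA sizes may be shrunken: fold change over error came to 0.919 of the z of the deposited p in members and to 0.779 over all genes (medians).

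Calls at a ZT used the deposited adjusted p under 0.05. PER2 means were tested by Stouffer's sum of z, and RORA means with inverse-variance weights. Cochran's Q tested change with ZT (5 degrees of freedom), for which the PER2 error was the fold change over the root of the deposited score. Tests were two-sided, with Benjamini-Hochberg adjustment over all genes. Alternatives used a level minimum (mean normalized count 50 in RORA, 1 CPM in PER2), limma, other thresholds, centring, leaving out a ZT, and removal of the trend with transcript length and GC content (GENCODE M21, matched for 99.8% of RORA and 95.2% of PER2 genes). Named genes are, per set, up to 8 lowest and 8 highest means among members past the test, the 4 smallest adjusted p of the change with ZT, listed paralogue pairs and stalk genes, the 4 highest and lowest levels, and up to 4 genes of each other pathway list. One gene that this rule takes is not reported here. The statistics were run on simulated data with noise independent between ZT and of the size of the error used. That setting could not test whether the comparisons are separate or the errors correct. Software was Python 3.11.15, NumPy 2.4.6, pandas 2.3.3, SciPy 1.17.1, matplotlib 3.10.9, R 4.3.3 and limma 3.58.1.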

Additional observations from a re-analysis of the deposited data

Results flagged for a closer look

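In the RORA set the effect of the knockout differed between ZT in 7 of 80 members (8.75%, against 11.0% of all genes) by Cochran's Q, with adjusted p of 0.001 for Rpl10, 0.00119 for Rps27, 0.00718 for Rps3a1, 0.0134 for Rps26, 0.0233 for Rpl32, 0.0373 for Rps15 and 0.0476 for Rpl9. Rps26 was the one among them with calls of both signs. Rps15 stood between -0.16 at ZT8 and -0.01 at ZT20 in the authors' deposited tables, and Rpl32 between -0.10 at ZT16 and 0.07 at ZT4.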

How the results depend on the processing

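No paired analysis was possible because the tables hold comparisons and no values per library. Leaving out single libraries was not possible for the same reason. In the RORA set, the 45 members that fell were 25 in limma, 32 without ZT0 and 37 without ZT8. The 2 that rose were 1 in limma, 1 without ZT4 and 1 without ZT20. Change with ZT was called in 7 members, in 18 with Q on z values (18.4% of all genes), in 13 of 78 over genes above the level minimum (17.6%), and in 4 without ZT0 (9.39%) or without ZT4 (6.81%). At an adjusted p under 0.01, calls at ZT4 went from 22 to 12 and at ZT12 from 16 to 10. Rpl3l, not called at 0.00, stood at -0.028 (adjusted p 0.0311) with the length and GC trend removed. In the PER2 set, the 1 positive member (Rpl24) was 0 in limma, without ZT4, without ZT12, without ZT20, and without ZT4 and ZT12 together. The 2 negative members (Rpl10 and Rpl3) were 0 in limma, without ZT4, without ZT12, without both and with the trend removed, 1 without ZT20, 5 without ZT0 and 7 without ZT16. The 26 calls at ZT4 were 0 at an adjusted p under 0.01. With the trend removed none of the 26 remained, and Rpl24, which was positive and not among them, was the 1 call at ZT4. It was then also the 1 call at ZT12, where 0 had been called. Apart from fewer comparisons, the cause was not tested. Of 285 values of 26 named RORA members, 248 kept their direction and side of the threshold, 36 no longer passed it and 1 reversed; of 180 PER2 values of 15 members these were 160, 17 and 0, and 3 newly passed. Depth is unknown, so what it limits cannot be given.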
